A study of Rattus norvegicus with 26 samples.

Results

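The genes described here are those named for parts of the cilium on the rat expression array, read in primary cultures of 4 brain cell types. A gene was included if its symbol began with Cfap, Tekt, Dnah, Dnai, Dnali, Rsph, Spag, Ift or Bbs followed by a digit, and Foxj1 was added. The rule used gene names and no measured value, but it was chosen with earlier results of these data known. It gave 68 of the 14217 genes that had a probe set with 1 symbol. They were 19 Cfap genes, 17 Ift genes, 7 Bbs genes, 7 axonemal dynein genes, 6 tektin genes, 6 Spag genes, 5 radial spoke genes and Foxj1. Where a gene had several probe sets, as 15 of the 68 did, the one with the highest mean over all 26 arrays stood for it.

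The study measured total RNA from neuronal (N), astrocytic (A), oligodendrocytic (O) and microglial (M) cultures, each prepared from the cerebral cortex of newborn rat pups (postnatal day P1), with 4 biological replicates per culture. It also measured 5 RNA mixtures, each in 2 replicates. The labels give no strain, sex, treatment or days in culture, and no group carried a genetic change. Values are log2 probe set intensities after robust multi-array averaging (RMA), so a difference of 1 is a doubling of the linear signal. Array medians ran from 5.25 to 5.31 in the cultures and from 5.33 to 5.41 in the mixtures. The number of arrays limits the precision, and no call of presence or absence was used. The description of microglial replicate 4 reads as that of a mixture, while its cell type label is microglial. It was kept as microglia, and leaving it out left 34 members higher in astrocytes than in microglia, the same number as with it.

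A motile cilium beats because dynein arms slide the doublet microtubules of its axoneme against each other. Radial spokes carry signals from the central pair to those arms, and tektins and many CFAP proteins line or brace the doublets. In the brain, ependymal cells and choroid plexus epithelium carry such cilia, and the transcription factor FOXJ1 drives the genes that build them. Most other neural cells, neurons and astrocytes among them, carry a single primary cilium that has no such arms. Intraflagellar transport (IFT) trains and the BBSome, made of BBS proteins, move cargo in both kinds of cilium, so Ift and Bbs genes do not mark motile cilia. Several Spag genes are named after sperm antigens and act outside the cilium: Spag5 encodes a protein of the mitotic spindle, and Spag9 a scaffold of JNK signalling. The name-based set was therefore read family by family.

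Promoter sequences, from RefSeq on build GRCr8, are shown first because the RFX factors that act beside FOXJ1 bind a recognisable element, the X-box, in promoters of ciliary genes. The table held 68 transcription starts for 56 of the 68 genes, each with 250 bases before and 50 after the start. The X-box was searched on both strands as GTNNCC, a gap of 0 to 3 bases, and NGNAAC, and the forkhead core as GTAAACA. An X-box match lay in 12 of 68 member starts (17.6%) and in 1702 of all 33469 starts (5.09%). The forkhead core lay in 3 member starts (4.41%) and in 3.78% of all starts. The 9 member matches that lie wholly before the start are shown, from 8 genes, and are written 5′ to 3′ on the gene's strand, with the X-box match in capitals.
Cfap144, chr10:44019282-44019342 (minus strand): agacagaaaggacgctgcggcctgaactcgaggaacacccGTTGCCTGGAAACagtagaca
Cfap298, chr11:43677560-43677632 (minus strand): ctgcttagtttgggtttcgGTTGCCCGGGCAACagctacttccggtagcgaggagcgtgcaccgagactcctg
Cfap298, chr11:43677420-43677514 (minus strand): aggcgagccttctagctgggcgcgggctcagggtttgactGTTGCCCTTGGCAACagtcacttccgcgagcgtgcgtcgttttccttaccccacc
Dnai1, chr5:61525940-61526032 (plus strand): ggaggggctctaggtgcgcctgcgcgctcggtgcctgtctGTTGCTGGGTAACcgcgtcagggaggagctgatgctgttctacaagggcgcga
Tekt2, chr5:143907725-143907800 (minus strand): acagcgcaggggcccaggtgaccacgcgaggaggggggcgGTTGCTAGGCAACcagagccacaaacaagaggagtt
Dnah2, chr10:54766027-54766111 (minus strand): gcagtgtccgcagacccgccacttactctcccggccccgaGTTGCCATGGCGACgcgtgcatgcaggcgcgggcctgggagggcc
Cfap90, chr1:36678304-36678377 (minus strand): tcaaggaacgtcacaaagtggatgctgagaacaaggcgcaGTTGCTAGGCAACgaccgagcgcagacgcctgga
Cfap20dc, chr15:18661344-18661437 (plus strand): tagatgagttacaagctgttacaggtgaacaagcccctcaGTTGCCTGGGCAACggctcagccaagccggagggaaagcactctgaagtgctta
Spag5, chr10:63696586-63696674 (plus strand): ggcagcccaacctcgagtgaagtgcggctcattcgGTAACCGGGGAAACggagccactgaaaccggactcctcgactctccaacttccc
The matches of Tekt4, Cfap45, Ift22 and Ift140 reach past the start or lie after it. These genes did not share one expression pattern in the cultures. Cfap144 was higher in astrocyte cultures than in each other culture, Cfap298 and Dnai1 were called against some of them, and Tekt2 and Dnah2 differed by less than 1 log2 unit. Cfap90 was lower in astrocytes than in neurons, Spag5 was lower in neurons than in each other culture, and Cfap20dc was not called. Among starts of the 25 genes higher in astrocytes than in each other culture, 4 of 29 held an X-box match (13.8%), and among the remaining member starts 8 of 39 did (20.5%). A match describes these letters and is not evidence of binding.

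Cilium genes were more often higher in astrocyte cultures than genes at large. Against the mean of the other 3 cultures, 35 of the 68 were higher and none was lower, at an adjusted p under 0.05 and a log2 difference of at least 1 (limma, adjusted over all 31042 probe sets). Over all 14217 genes, 11.6% were higher and 8.82% lower by the same rule. The median difference was 1.05 for the 68 genes and -0.01 for all genes. The calls came from 11 of 19 Cfap genes, 10 of 17 Ift genes, 5 of 7 Bbs genes, 4 of 7 dynein genes, 2 of 5 radial spoke genes, 2 of 6 tektin genes and Foxj1, and from none of the 6 Spag genes. Without a minimum difference 2 members, Cfap90 and Spag9, were lower, and the share of all genes by that rule was not counted. In all, 11 members lay below the median of every culture array on all 16 arrays, and they were Bbs12, Cfap107, Dnah2, Dnah7, Dnah17, Rsph3, Spag11a, Spag16, Tekt3, Tekt5 and Tekt5l1. The share of all genes that did so was not counted, so this number only marks members with weak signal. In bulk RNA such as this, fewer cells of a type and less RNA per cell cannot be told apart.

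Each other culture gave a similar count when taken alone, though these comparisons share the astrocyte arrays. Against neurons 30 members were higher (17% of all genes), and only Cfap90 was lower (12.8% of all genes). Against oligodendrocytes 38 were higher (11.5%) and none lower (9.19%), and against microglia 34 were higher (12.3%) and none lower (8.98%). Against all 3 of them, taken one by one, 25 members were called higher, against 5.91% of all genes. They were Foxj1, Tekt1, Tekt4, Dnah1, Dnai7, Dnali1, Rsph1, Rsph9, Cfap45, Cfap77, Cfap100, Cfap126, Cfap144, Cfap161, Cfap299, Cfap300, Ift43, Ift46, Ift70b, Ift80, Ift81, Ift140, Bbs2, Bbs7 and Bbs9. For 12 of the 25, the other 3 culture means all lay below the median of every array, near the lower end of the scale, where log2 differences can understate a change. Every astrocyte array exceeded every other culture array for 26 members (8.98% of all genes), 18 of them among the 25.

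**Figure D1:**
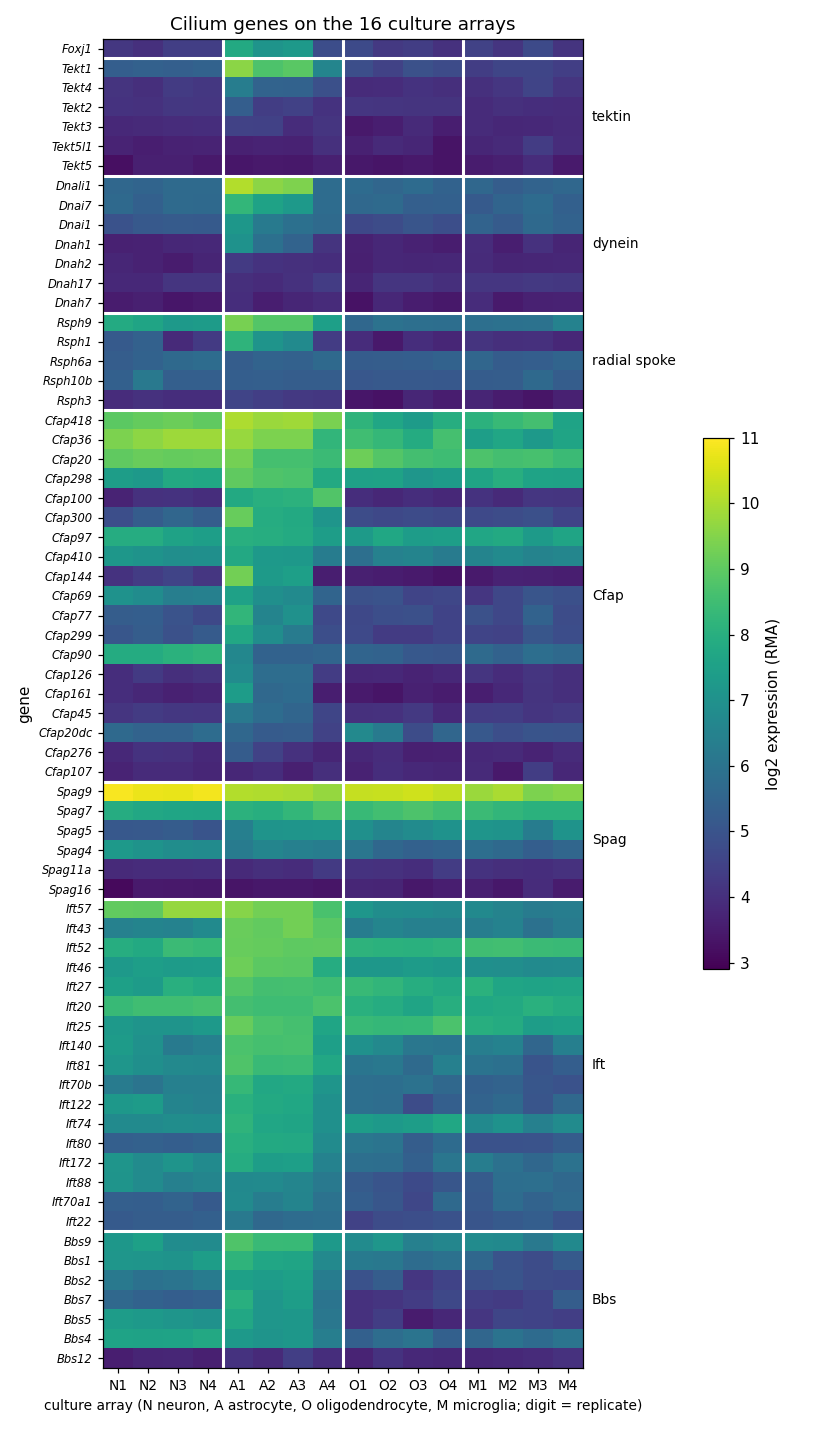
Log2 intensity of the 68 cilium genes (rows, by family) on the 16 culture arrays (columns). The 25 genes higher in astrocytes than in each other culture stand out in the columns A1 to A3, and most of them are darker, that is lower, in A4.

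Foxj1, the regulator of the motile programme, read 7.81, 7.11, 7.30 and 4.83 on A1 to A4. It read 4.20, 4.02, 4.39 and 4.41 on N1 to N4, 4.72, 4.24, 4.39 and 4.05 on O1 to O4, and 4.49, 4.15, 4.73 and 4.12 on M1 to M4. Arrays A1 to A3 were far above the other 12 culture arrays, and A4 was above them by a small margin. The astrocyte mean was 6.76 ± 1.32 (SD, n = 4), which was 2.43 ± 0.36 (SE) log2 units above the mean of the other cultures (adjusted p = 6.16e-05, limma). In order of level the astrocyte cultures came first, followed by microglia at 4.37 ± 0.29, oligodendrocytes at 4.35 ± 0.28 and neurons at 4.26 ± 0.19 (SD, n = 4 each). No call separated these last 3 cultures.

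Of the tektins, filament proteins inside the doublet microtubules, Tekt1 was the member that differed most. Its values were 9.58, 8.74, 8.92 and 6.60 on A1 to A4, 5.32, 5.42, 5.34 and 5.44 on N1 to N4, 4.86, 4.50, 4.91 and 4.76 on O1 to O4, and 4.36, 4.60, 4.61 and 4.41 on M1 to M4. All 4 astrocyte arrays were above all others, with A4 lowest of the 4. The difference from the mean of the other cultures was 3.58 ± 0.34 log2 units (SE), or 11.96-fold (adjusted p = 6.57e-07). Tekt4 was higher by 1.41 ± 0.18 (adjusted p = 1.24e-05). Tekt2 and Tekt3, with differences of 0.49 and 0.47, did not reach the minimum of 1, and Tekt5 and Tekt5l1 differed by -0.04 and -0.01.

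Dynein genes split by signal. Dnali1 encodes a light intermediate chain of inner arm dyneins and read 10.06, 9.61, 9.44 and 5.76 on A1 to A4. The neuronal arrays read 5.60, 5.52, 5.69 and 5.70, the oligodendrocyte arrays 5.73, 5.58, 5.73 and 5.46, and the microglial arrays 5.61, 5.29, 5.48 and 5.60. A4 was barely above the highest array of another culture, while A1 to A3 were far above. The mean difference was 3.13 ± 0.52 (SE, adjusted p = 0.000162), and a second, dimmer Dnali1 probe set differed by 0.47 only. Dnah1, a heavy chain of an inner arm dynein, read 7.02, 5.89, 5.48 and 4.12 in astrocytes against means of 3.74 ± 0.08 in neurons, 3.67 ± 0.09 in oligodendrocytes and 3.82 ± 0.21 in microglia (SD, n = 4). It was higher by 1.88 ± 0.32 (SE, adjusted p = 0.000205). Dnai7 was higher by 1.70 and Dnai1, an intermediate chain of the outer arm, by 1.10. The differences of the heavy chain genes Dnah2, Dnah7 and Dnah17 were 0.35, 0.23 and -0.00, on probe sets below the array median throughout.

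Radial spoke genes behaved alike only in part. Rsph1, a spoke head protein, read 8.18, 7.09, 6.79 and 4.33 on A1 to A4 and 5.18, 5.42, 3.86 and 4.28 on N1 to N4. Its values were 3.94, 3.46, 3.97 and 3.78 on O1 to O4, and 4.11, 3.99, 4.03 and 3.79 on M1 to M4. Here A4 fell within the neuronal range, so the cultures overlapped. Rsph1 was higher by 2.44 ± 0.47 (SE, adjusted p = 0.000572). Rsph9, another spoke head protein, was higher by 2.16 ± 0.24 (adjusted p = 3e-06), and its neuronal mean of 7.52 was well above the 5.81 and 6.06 of oligodendrocytes and microglia. Rsph3 and Rsph6a differed by 0.68 and 0.03. Rsph10b shows how the choice of probe set matters: the brighter one differed by -0.05, while the other read 7.52, 6.61, 6.42 and 4.27 on A1 to A4 and was higher by 2.21 ± 0.37 (adjusted p = 0.000165). Among the 15 genes with several probe sets, the 2 brightest gave the same call in 12.

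**Figure D2:**
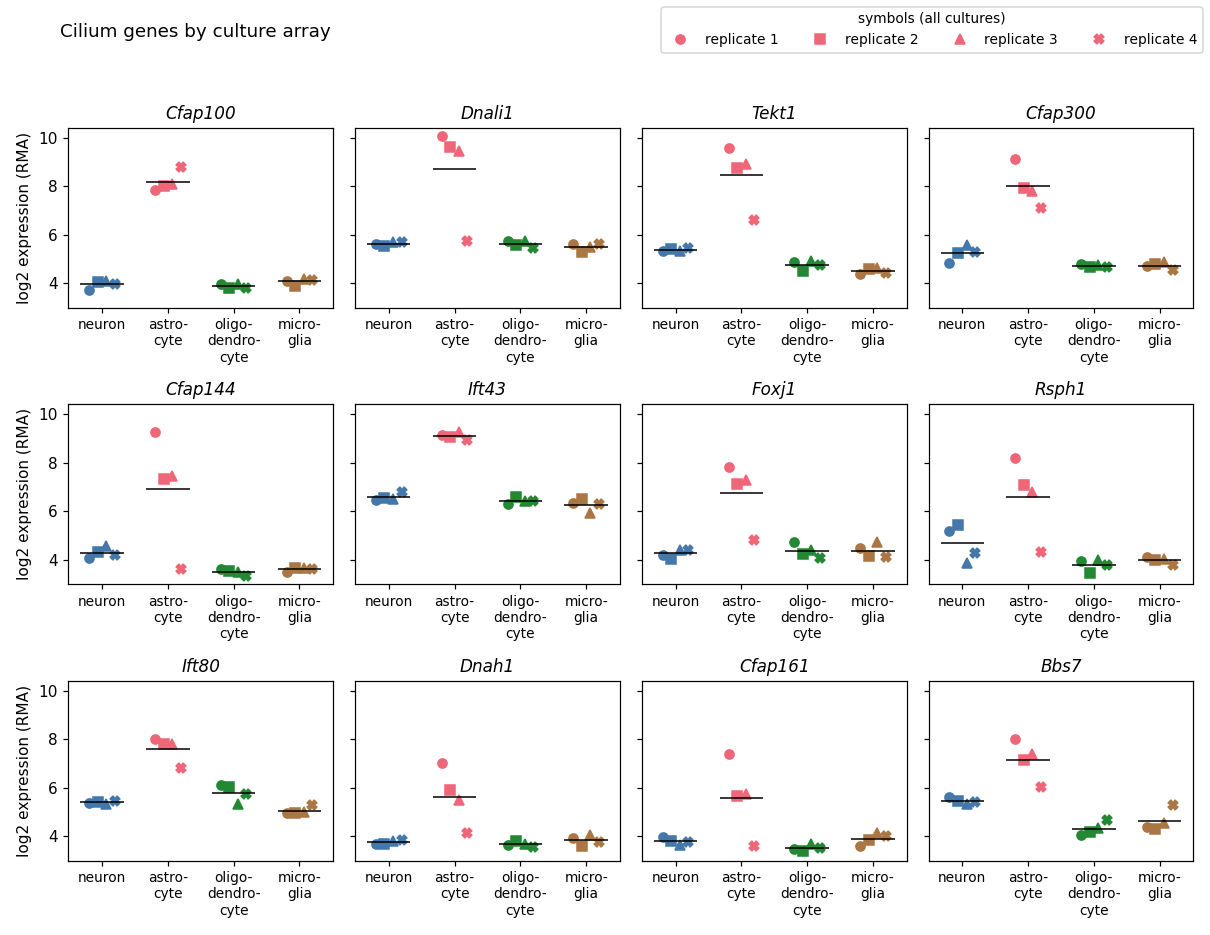
Log2 intensity on each of the 16 culture arrays for the 12 members singled out by the rule given in the methods, with a black line at each culture mean. In most panels A4 lies apart from A1 to A3, whereas for Ift43 the 4 astrocyte arrays lie between 8.93 and 9.27 and for Cfap100 A4 is the highest at 8.79.

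The Cfap genes encode a mixed set of cilia and flagella associated proteins. Cfap100 had the largest difference of all 68 genes and ran against the common order: it read 7.82, 8.02, 8.09 and 8.79 on A1 to A4. It read 3.70, 4.07, 4.08 and 3.95 on N1 to N4, 3.96, 3.79, 3.97 and 3.82 on O1 to O4, and 4.09, 3.86, 4.18 and 4.14 on M1 to M4. The cultures did not overlap, and the difference was 4.21 ± 0.14 log2 units (SE), or 18.5-fold (adjusted p = 1.15e-11). Cfap144 had the widest spread in astrocytes, at 9.28, 7.32, 7.46 and 3.59. Its A4 value lay among the oligodendrocyte and microglial values, whose means were 3.49 ± 0.12 and 3.60 ± 0.08 (SD, n = 4), and below the neuronal mean of 4.28 ± 0.21. Its difference was 3.13 ± 0.62 (SE, adjusted p = 0.000781).

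Cfap300, which takes part in assembling dynein arms, read 9.11, 7.93, 7.81 and 7.11 on A1 to A4, above all other culture arrays, and was higher by 3.10 ± 0.24 (SE, adjusted p = 6.3e-08). Cfap161 read 7.39, 5.64, 5.73 and 3.59 and was higher by 1.86 ± 0.41 (adjusted p = 0.00185), with A4 inside the range of the other cultures. A further 6 Cfap genes, Cfap45, Cfap69, Cfap77, Cfap126, Cfap299 and Cfap418, were higher by 1.31 to 1.72, and Cfap298 by 1.04. The remaining 8 were not called. Cfap90, named here because it alone was lower in astrocytes in a pairwise comparison, had a neuronal mean of 8.01 ± 0.15 against 5.77 ± 0.58 in astrocytes (SD, n = 4), a difference of -2.25 ± 0.22 (SE, adjusted p = 4.29e-07). It was also lower in oligodendrocytes and microglia than in neurons.

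The Ift genes encode the transport trains shared by primary and motile cilia. Ift43, part of the IFT-A complex, read 9.14, 9.06, 9.27 and 8.93 on A1 to A4. Its values were 6.47, 6.54, 6.49 and 6.78 on N1 to N4, 6.31, 6.57, 6.42 and 6.42 on O1 to O4, and 6.33, 6.49, 5.93 and 6.28 on M1 to M4. The 4 astrocyte arrays were close together and apart from all others, by 2.68 ± 0.10 log2 units (SE, adjusted p = 3.58e-11). Ift80, part of IFT-B, read 8.01, 7.81, 7.78 and 6.80 and was higher by 2.20 ± 0.18 (adjusted p = 1.34e-07). Ift70b and Ift81, also of IFT-B, and Ift140, of IFT-A, were higher by 1.97, 2.17 and 1.88. Ift20 and Ift74 differed by 0.48 and 0.61.

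Of the 7 Bbs genes some were as high in neurons as in astrocytes. Bbs7, a BBSome subunit, read 8.02, 7.15, 7.40 and 6.03 on A1 to A4 and 5.62, 5.45, 5.32 and 5.40 on N1 to N4. It read 4.05, 4.15, 4.34 and 4.65 on O1 to O4, and 4.39, 4.30, 4.53 and 5.28 on M1 to M4. All 4 astrocyte arrays were above all others, and the difference was 2.36 ± 0.26 (SE, adjusted p = 2.9e-06). A second Bbs7 probe set differed by 0.29. Bbs5, another subunit, averaged 7.05 ± 0.69 in astrocytes and 7.19 ± 0.17 in neurons, but 3.94 ± 0.36 in oligodendrocytes and 4.42 ± 0.18 in microglia (SD, n = 4).

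Bbs5 was among 8 members that were higher in astrocytes than in oligodendrocytes and microglia but not called against neurons. The 8 were Bbs1, Bbs4, Bbs5, Cfap69, Cfap418, Ift57, Ift122 and Ift172. Not called does not mean equal: all astrocyte values of Cfap418, from 9.38 to 9.99, exceeded its neuronal values of 8.95 to 9.19. The share of all genes with such calls was not counted. In oligodendrocytes 15 members were lower than in neurons (12.7% of all genes) and 2 were higher (14.9%). In microglia 15 were lower (16.1%) and 1 was higher (16.3%). Both sets had 12 lower members in common, a number that rests partly on the shared neuronal arrays. Its share over all genes was not counted, so it is not read as a trait of cilium genes. No member was called between microglia and oligodendrocytes in either direction (5.9% of all genes higher, 7.06% lower). Without a minimum difference, 2 were higher and 7 lower in microglia, and the shares of all genes by that rule were not counted.

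Among the Spag genes, Spag5 was higher in oligodendrocytes and in microglia than in neurons, and it averaged 5.13 ± 0.11 in neurons, 6.94 ± 0.36 in astrocytes, 6.85 ± 0.20 in oligodendrocytes and 6.88 ± 0.39 in microglia (SD, n = 4). The list of 11 cell division genes shared this shape, with array means of 4.52 to 4.60 in neurons and 7.37 to 8.24 in the other 3 cultures. Spag9 averaged 10.8 ± 0.08 in neurons and 9.94 ± 0.16 in astrocytes. Spag16, which encodes a central pair protein, was below the median on every culture array.

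**Figure D3:**
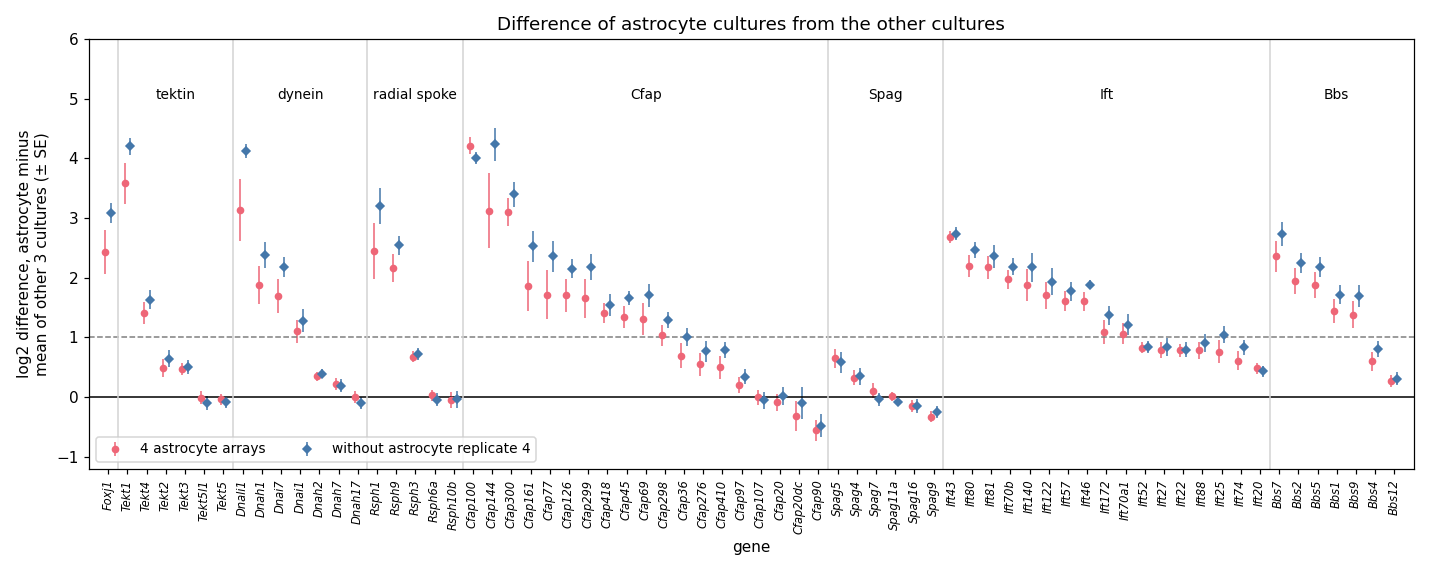
Difference between astrocyte cultures and the mean of the other 3 cultures in log2 units (± SE) for the 68 genes, with all 4 astrocyte arrays and without A4. A dashed line marks the minimum of 1. Leaving out A4 widened most of the larger differences, from 2.43 to 3.08 for Foxj1, and narrowed that of Cfap100 from 4.21 to 4.01.

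The 4 astrocyte arrays differed among themselves more for cilium genes than for genes at large. A1 was the highest of the 4 for 51 of the 68 genes (24.4% of all genes) and A4 the lowest for 49 (33.8% of all genes), and both held for 46 (67.6%), against 16.5% of all genes. A1 exceeded A4 by at least 1 log2 unit for 37 members (7.13% of all genes), and A4 exceeded A1 by as much for none (5.32% of all genes). The median of A1 minus A4 was 1.16 for the members and -0.06 for all genes. By family the median was 1.50 for Cfap, 1.48 for dyneins, 1.44 for Bbs, 1.00 for Ift, 0.78 for tektins, 0.34 for radial spokes and -0.24 for Spag genes, and Foxj1 differed by 2.98. These are single arrays, so no test was made. The largest such gap was 5.69 for Cfap144.

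The calls against the mean of the others, and those against each culture, all held without A4. Since A4 was the lowest astrocyte array for 49 of the 68 genes, its removal raised most astrocyte means. That the calls were kept therefore says little. Then 37 members were higher than the mean of the other cultures, the 35 from before with Cfap36 and Ift25 added (12.3% of all genes). Likewise 27 members were higher than each other culture, the 25 from before with Cfap298 and Ift70a1 (6.62% of all genes). Dnali1 then differed by 4.12 ± 0.12 and Cfap144 by 4.23 ± 0.28 (SE). Leaving out A1 had a larger effect on the counts, with 20 members higher than each other culture and 22 higher than neurons. The shares of all genes without A1 were not counted.

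Other genes of motile ciliogenesis were listed for their known roles, also with earlier results of these data known. Of 9 measured regulators, 6 were higher in astrocytes than the mean of the others (11.6% of all genes) and none was lower (8.82%). They were Ccno and Deup1, which act in making many basal bodies, Rfx2 and Rfx4, which bind the X-box, Myb, and Gmnc, which encodes geminin coiled-coil domain containing protein and starts the multiciliated fate. Ccno read 8.11, 7.75, 7.54 and 3.74 on A1 to A4 and differed by 3.15, and Deup1 read 7.83, 7.42, 7.22 and 4.76 and differed by 3.07. The mean of the 9 was 7.74, 7.25, 7.27 and 5.03 on A1 to A4, and 4.67 to 5.04 on the 12 other culture arrays. The A4 mean was thus within the range of the other cultures, but it hides differences between genes. On A4 Rfx2 read 5.34 and Deup1 4.76, above their highest means in another culture, 4.55 and 3.85. Ccno, Myb and Gmnc read 3.74, 3.46 and 3.46, close to their highest means of 3.72, 3.39 and 3.29. Rfx3 read 4.51, below its neuronal mean of 7.28, and Rfx1, Rfx4 and E2f4 were also below a mean of another culture. Rfx1, Rfx3 and E2f4 were not called.

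Of 40 other motile cilium genes, 26 were higher (11.6% of all genes) and none lower (8.82%). The largest differences were 4.37 for Dynlrb2, a dynein light chain, 3.97 for Tppp3, 3.50 for Spa17 and 3.33 for Ak7. Of 37 genes of primary and motile cilia in general, 17 were higher (11.6% of all genes) and none lower (8.82%) against the mean of the others. The largest differences were 2.60 for Dync2li1, a subunit of the dynein that drives retrograde transport, and 2.58 for Pkd2, a ciliary channel. Pkd2 read 9.84, 9.72, 9.82 and 10.45 on A1 to A4 and so was highest on A4. Against neurons alone, 11 of the 37 were higher (17% of all genes) and 3 lower (12.8%) in astrocytes. The kinesin-2 genes Kifap3 and Kif3b, named after their values were seen, averaged 11.2 ± 0.18 and 9.43 ± 0.04 in neurons and 8.99 ± 0.27 and 8.11 ± 0.12 in astrocytes (SD, n = 4). Kif3a, also of kinesin-2, averaged 7.74 ± 0.32 in neurons and 7.88 ± 0.32 in astrocytes, and was called higher than the mean of the others by 1.11. The array means of the general list were 7.44, 7.21, 7.22 and 6.92 on A1 to A4, a smaller range than the 7.21, 6.52, 6.50 and 5.33 of the motile list.

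**Figure D4:**
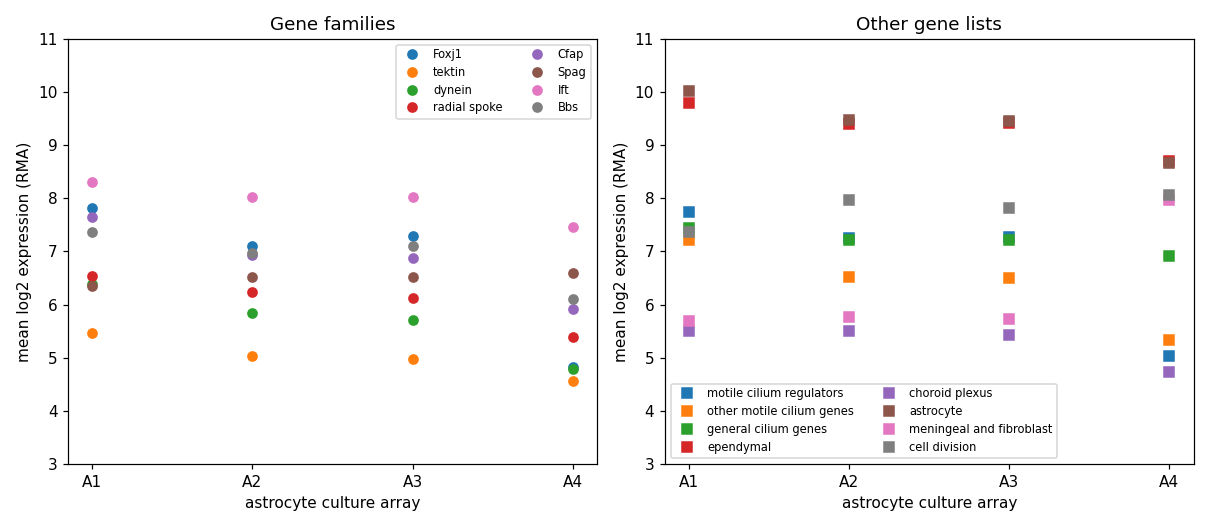
Mean log2 intensity of each family (circles) and of 8 comparison lists (squares) on the 4 astrocyte arrays. The motile regulators go from 7.74 on A1 to 5.03 on A4, while the meningeal and fibroblast list is at 5.68 to 5.76 on A1 to A3 and at 7.96 on A4.

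Markers of other cell types also differed between the astrocyte arrays, and their part in the cilium result was not tested. Of 12 astrocyte markers, 9 were called higher in astrocyte cultures than the mean of the others (11.6% of all genes). Against neurons alone 4 of the 12 were higher (17%), and 4 were higher than each other culture (5.91%). Aqp4, the main water channel of astrocytes, had the largest difference from the mean of the others, 5.15. It was followed by the gap junction gene Gja1 at 4.62, Fgfr3 at 4.58 and Gfap at 3.30. A1 was the highest astrocyte array for 9 of the 12 (24.4% of all genes) and A4 the lowest for 10 (33.8%). A1 exceeded A4 by at least 1 log2 unit for 9 (7.13%), and the median of A1 minus A4 was 1.46. Fgfr3 alone was highest on A4, at 11.50 against 10.40 to 10.48 on A1 to A3. Slc1a2 and Gjb6 were near the lower end of the scale in all cultures, and Ntsr2, which differed by 1.11, was not called (adjusted p = 0.0545, limma). The mean of this list was 10.01 on A1, 9.48 and 9.45 on A2 and A3, and 8.66 on A4, against 6.83 to 8.84 in neurons, 6.19 to 7.89 in oligodendrocytes and 5.46 to 5.86 in microglia. Astrocyte markers were thus also measured in the neuronal cultures, and the number and state of any astrocytes there were not tested.

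Of 11 markers of meningeal and fibroblast cells, 4 were higher (11.6% of all genes) and 1 lower (8.82%) in astrocyte cultures than the mean of the others. The largest difference was that of Ogn, 5.30, which hardly varied between astrocyte arrays, at 10.14, 9.96, 10.07 and 10.04. The other 3 were collagens that were highest on A4: Col1a1 read 6.78, 7.70, 7.72 and 13.01, and Col1a2 8.24, 7.92, 8.02 and 13.11. Col3a1 read 7.63, 7.57, 7.66 and 12.56. Postn, which encodes periostin, was not called against the mean of the others (adjusted p = 0.469) and read 3.90, 4.64, 5.06 and 12.47. The remaining 6 showed no such gap: on A4 Igf2 read 5.13, Slc6a13 4.08, Foxc1 4.57 and Pdgfra, the gene that was lower, 5.98, and Dcn and Lum were between 3.13 and 3.52 on all 4 arrays. The list mean was 4.55 to 5.07 in neurons, 4.89 to 5.83 in oligodendrocytes and 4.56 to 4.86 in microglia.

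Ependymal markers other than cilium genes were higher than the mean of the others in 9 of 11 cases (11.6% of all genes) and lower in 1 (8.82%). Against neurons alone 6 were higher (17%) and 1 lower (12.8%), and 4 were higher than each other culture (5.91%). Their list means were 9.80, 9.40, 9.41 and 8.69 on A1 to A4. A1 was the highest astrocyte array for 8 of the 11 (24.4% of all genes) and A4 the lowest for 9 (33.8%). After Aqp4 the largest differences were those of Cd24, 4.19, and Rarres2, 4.16. Cd24 read 11.04, 10.69, 10.73 and 9.43 on A1 to A4, and Rarres2 8.84, 9.04, 9.27 and 9.23. The list overlaps that of astrocytes in Aqp4 and S100b, and its members Vim, Nes and Sox2 are also expressed by other glia and progenitors. The list means were 7.02 to 7.81 in neurons, 6.85 to 7.80 in oligodendrocytes and 6.20 to 6.58 in microglia. Of 14 choroid plexus markers 4 were higher (11.6% of all genes) and none lower (8.82%), with the largest differences 4.62 for Sostdc1 and 3.50 for Calml4. Sostdc1 read 8.78, 10.70, 10.85 and 5.63 on A1 to A4, and Calml4, Folr1 and Krt8 also had their lowest value on A4. The defining choroid plexus genes Ttr, Kcnj13 and Otx2 differed by -0.00, -0.01 and -0.04. List means for this tissue were 5.51, 5.50, 5.42 and 4.73 on A1 to A4 and 4.24 to 4.78 in the other cultures.

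Microglial markers had a mean of 4.65 on A1, 6.12 on A2, 6.26 on A3 and 4.47 on A4, and oligodendrocyte markers 6.44, 5.11, 5.16 and 5.54. Against the mean of the others, 10 of 11 microglial, 7 of 9 oligodendrocyte and all 10 neuronal markers were lower in astrocyte cultures (8.82% of all genes). No marker of these lists was higher (11.6%), and none of 7 endothelial markers was called. The largest differences were -4.18 for Aif1 and -3.81 for Fcer1g among microglial, -3.34 for Ugt8 and -3.01 for Mbp among oligodendrocyte, -4.12 for Snap25 and -3.87 for Dcx among neuronal, and -0.26 for Pecam1 and 0.11 for Kdr among endothelial markers. Cell division genes were at 7.37 on A1 and at 7.81 to 8.06 on A2 to A4. Of the 11, 4 were called higher in astrocytes than the mean of the others (11.6% of all genes), led by Aurkb at 2.32 and Cdk1 at 2.13.

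The RNA mixtures re-measured the same difference, since the first replicate of each mixture was made from N1 and A1 and the second from N2 and A4. In mixtures that also held oligodendrocyte RNA, that parent changed too, from O2 to O4. Where microglial RNA was added, its parent changed from M2 to M3. These are technical repeats of the A1 and A4 RNA and not further cultures. Foxj1 read 8.00, 7.29 and 6.26 in first replicates with an astrocyte fraction of 0.75, 0.5 and 0.25, and 4.52, 4.35 and 4.58 in the second ones. For Cfap144 the values were 8.61, 7.95 and 6.99 in the first replicates and 3.70, 3.62 and 4.07 in the second. Ift43 gave 8.55, 8.12 and 7.37 against 8.31, 7.75 and 7.32. Mixtures from A1 thus scaled with the astrocyte fraction for Foxj1 and Cfap144, and those from A4 remained low, while Ift43 scaled in both.

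Over all 5 mixtures the first replicate was above the second in every one for 45 of the 68 genes (17.3% of all genes), and below in every one for 3 (13.8% of all genes). With both replicates in 1 fit of the slope on the neuronal fraction, 3 members fell (7.69% of all genes) and none rose (11%). They were Cfap100, with a slope of -3.91 ± 0.70, Ift43, with -2.18 ± 0.31, and Ift52, with -1.38 ± 0.26 log2 units per unit of neuronal fraction (SE, 6 arrays). With the mixture replicate as a block, 9 fell (17.2%) and 2, Cfap90 and Spag9, rose (14.5%). The 9 were Bbs7, Cfap100, Cfap300, Ift43, Ift46, Ift52, Ift80, Spag5 and Tekt1.

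Within the first replicates alone 37 members fell (19.1% of all genes) and none rose (11.8%). Within the second, 8 fell (17.5%) and 7 rose (18.2%). Each of these fits has 3 arrays. The slope of Foxj1 was -3.47 ± 0.34 in the first replicates (SE, adjusted p = 0.000728) and 0.12 ± 0.34 in the second (adjusted p = 0.858). That of Tekt1 was -4.48 ± 0.37 and -1.09 ± 0.32.

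**Figure D5:**
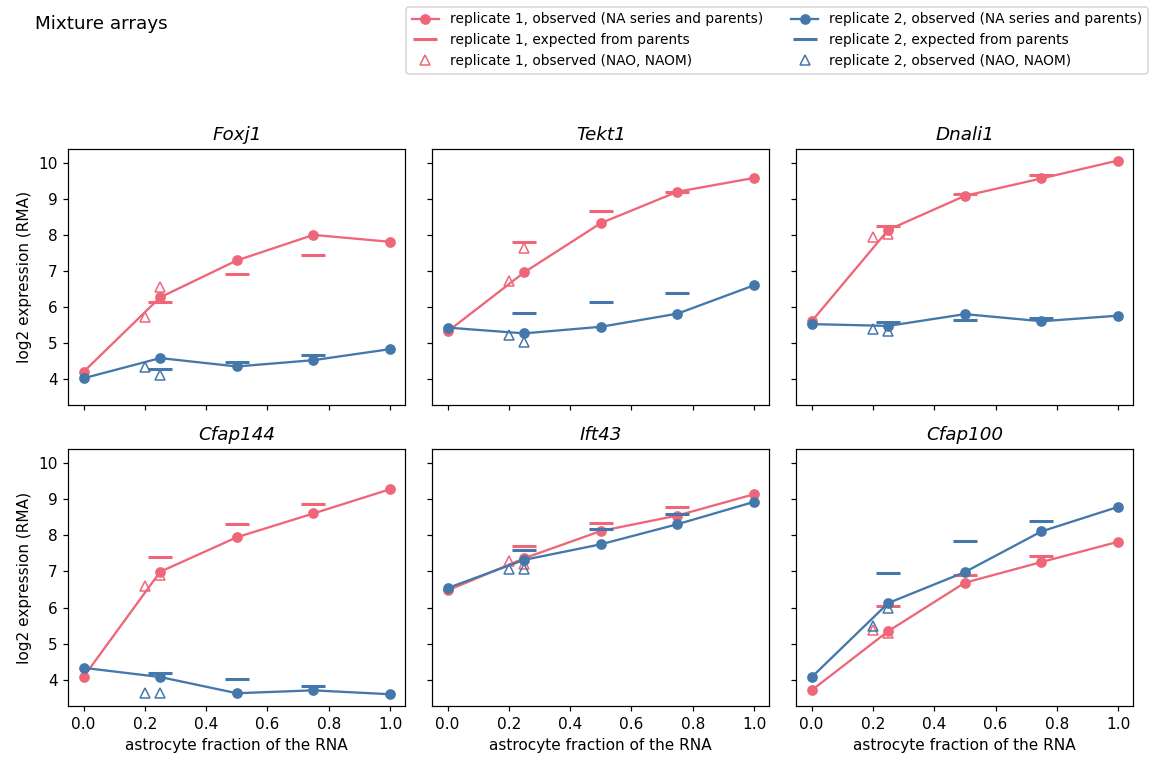
Log2 intensity against the astrocyte RNA fraction for 6 members in the mixtures of replicate 1 (from A1) and replicate 2 (from A4), with the values expected from the stated parents (bars) and the parent arrays at fractions 0 and 1. Triangles are the mixtures that also hold oligodendrocyte or microglial RNA. For Foxj1 the replicates differ by 3.48 at an astrocyte fraction of 0.75, whereas for Ift43 they differ by 0.24.

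Expected values were obtained by weighting each named parent's linear signal by its fraction and adding these up. For the 25 members higher in astrocytes than in each other culture, observed minus expected had a median of -0.30 in the first replicates and -0.24 in the second, and 103 and 105 of 125 values lay within 0.5. For Foxj1 the medians were 0.37 and -0.13.

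Genes with a pattern like that of Foxj1 were ranked by Pearson correlation over the 16 culture arrays, as a description. The 10 closest non-members were Itgb4, Cyp4f1, Sult1a1, Cyp4f4, Myb, Ccno, Deup1, Rfx2, Gmnc and Cyp4b1, with r of 0.98 each. These points share the division into astrocyte and other cultures and the low A4 value. Itgb4, which encodes an integrin subunit, read 9.84, 9.27, 9.32 and 4.54 on A1 to A4. Of the 67 other members 15 had r of at least 0.9, with a median of 0.72, against 215 of 14149 other genes with a median of -0.04.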

How the data were processed

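The deposited table holds log2 intensities of 26 Affymetrix rat arrays, made by the authors with RMA from the affy package, per the submitters' processing notes, which give no version. RMA normalizes the arrays it is given together, but no source used here says whether the 16 culture and 10 mixture arrays were run as 1 set. Of 31099 rows, 57 control probe sets were left out and 31042 tested. Gene names came from GEO's platform annotation: 20826 probe sets had 1 symbol, 436 several and 9780 none, and none was named from several. All 68 members matched the RefSeq gene table (GRCr8) by gene ID.

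Culture contrasts were fitted in 1 limma model (3.58.1, R 4.3.3) with a mean per culture and no block. P-values were adjusted by Benjamini-Hochberg over all probe sets, and a call needed an adjusted p under 0.05 and a log2 difference of at least 1. Percentages of all genes use 1 probe set per gene. Mixture slopes had no minimum. The replicates are biological per the series design, but no source used here says whether litters or culture days were shared.

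Per-array values are given for Foxj1 and the members higher in astrocytes than in each other culture, limited to the 12 with the largest smallest pairwise difference. Lists are given by counts with their 2 to 4 largest differences, and other genes were named after their values were seen. The members and lists were chosen with earlier results of these data known. Same-numbered cultures deviated from their group means with correlations of -0.11 to 0.18 over 24 pairs, 5 of them above 0.1. Cultures were therefore not paired by number, though such correlations cannot exclude a shared litter or culture day. In the mixtures the labels tie each number to its parents, and correlations were 0.48 to 0.87. The model was tested on simulated data. Alternatives were array centring, renormalization, array weights, another variance prior, a filter on dim probe sets, other thresholds and the second probe set. Further ones were a replicate block, fitting the 2 compared cultures alone, culture means in place of mixture parents, and leaving out each array.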

Additional observations from a re-analysis of the deposited data

Results flagged for a closer look

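Within each culture the 4 arrays were examined for the 12 members with per-array values and for the mean of all members, looking for 1 array far from the others, and chance alone flags about 1 in 20 such groups. Of 52 groups 2 were found. Dnali1 had its lowest astrocyte value on replicate 4, at 5.76, against 9.44 to 10.06 on the other 3 astrocyte arrays. The gap was 0.856 of the whole range, above Dixon's 95% critical value for 4 samples. Ift80 had its highest microglial value on replicate 4, at 5.27, against 4.94 to 4.98 on the others, a gap of 0.874 of the range. That array is the one whose description reads as a mixture.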

How the results depend on the processing

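Of 158 results under alternatives other than leaving out a replicate, 136 stayed the same, which for counts means within 1.5 times the reported count. They include fits of the 2 compared cultures alone. They also include the medians of observed minus expected mixture values, judged by the SD of those differences. Of 108 results for the 12 named members, 104 kept direction and call. With no minimum difference, astrocytes against the mean of the others gave 53 higher and 2 lower, and the lower counts became 4 against neurons and 1 against oligodendrocytes. Oligodendrocytes against neurons then gave 4 higher, microglia against neurons 3 higher and 23 lower, and microglia against oligodendrocytes 2 higher and 7 lower. With a minimum of 2, the higher counts were 12 against the mean of the others, 8 against neurons, 16 against oligodendrocytes, 20 against microglia and 7 against each. Oligodendrocytes against neurons gave 0 higher and 3 lower, and microglia against neurons 0 higher and 5 lower. Fewer genes pass a higher minimum by construction. The shares of all genes with no minimum or a minimum of 2 were not counted, so these counts only show how calls of members moved. Leaving out 1 culture array gave 31 to 37 higher against the mean of the others, 22 to 32 against neurons, 37 to 40 against oligodendrocytes, 34 to 39 against microglia and 20 to 27 against each. Lower counts were 0 to 1 for astrocytes against oligodendrocytes and for microglia against oligodendrocytes, and 14 to 16 for microglia against neurons. Except without A4, the shares of all genes after leaving out an array were not counted. The replicate block moved no culture count by over 1.5 times. In the mixtures the block gave 9 falling and 2 rising, against 3 and 0 without it, and single replicates gave 8 to 37 falling and 0 to 7 rising. With culture means in place of the stated parents, observed minus expected had a median of 0.30 in the first replicates and -0.81 in the second. Signal over background limits the 11 members below every array median. The cause of these shifts was not tested.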
